A study of Mus musculus with 30 samples.

Results

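Neutrophils that have entered the brain after a stroke were set against the resident microglia of the same tissue, in mice labelled as knockout (KO) for the receptor TREM1. The comparison took every array titled as a KO neutrophil (5 arrays) and every array titled as a KO microglia (6 arrays), which together are 11 of the 30 arrays of the series. All were male C57BL/6 mice of 8 to 10 weeks and genotype TREM1-/-, and both groups shared a 45 min occlusion of the middle cerebral artery and 48 h of reperfusion, so no array of uninjured brain enters the comparison. Cells came from the ischemic hemisphere after perfusion and removal of myelin. The KO neutrophil gate took cells with high CD45 that carried CD11b and Ly6G. The KO microglia gate took cells with low CD45 that carried CD11b, and the labels give Ly6G as present in that gate as well. The same gates were used in wild-type mice (WT, TREM1+/+), which gave 4 WT neutrophil and 6 WT microglia arrays. The labels call the arrays of a group biological replicates and do not say whether an array held cells of 1 animal or of several. The deleted part of Trem1 is not named.

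Neutrophils are short-lived granulocytes made in the bone marrow, which reach injured tissue from the blood and release proteases and oxidants. Microglia are the long-lived macrophages of the brain parenchyma, which survey the tissue through purinergic receptors and can divide locally. TREM1 is a receptor of neutrophils and monocytes that couples to the adaptor TYROBP and the kinase SYK, while the related receptor TREM2 couples to the same adaptor in microglia and macrophages and binds lipids.

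Expression was measured on Affymetrix Clariom HT arrays as 1 intensity per transcript cluster, the set of probes for a gene. All values are log2 of the intensities the authors deposited, and each difference is KO neutrophils minus KO microglia on the log2 scale, where 1 unit is 2-fold. Passing means an adjusted p (Benjamini-Hochberg) under 0.05 in limma over all 22103 clusters, and n = 5 KO neutrophil and n = 6 KO microglia arrays throughout. Each cluster had 1 estimate of spread shared by all 30 arrays in 6 groups of genotype and cell type. An SE or adjusted p given below therefore need not match the spread of the 11 arrays compared. On the first principal component of the 11 arrays, which held 73.2% of their variance, KO neutrophils lay from 76.4 to 111.3 and KO microglia from -84.6 to -69.1. KO neutrophil 5 stood apart from the other KO neutrophil arrays on the second component, at 61.8 against -27.5 to -9.8, where the KO microglia arrays ran from -27.0 to 24.8 and the component held 6.6%. KO neutrophil arrays had median intensities of 89.3 to 97.9, against 110 to 116 on KO microglia arrays. In KO neutrophils 24.3% to 25.9% of an array's total intensity came from its 100 brightest clusters, against 20.2% to 21.1% in KO microglia. KO microglia 2 had the highest mean over the neutrophil marker list of its group, 8.09 against 6.89 to 7.18 on the other 5 arrays.

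Of the 22103 clusters, 9949 (45.0%) passed. KO neutrophils were higher for 2867 (13%) and lower for 7082 (32.0%), and 11403 clusters had an unadjusted p under 0.05. That split depended on the scaling: 28.8% of the calls were higher in KO neutrophils as deposited, 49.1% (4489 higher, 4654 lower) with quantile normalization over all arrays and 55.0% (5280 higher, 4321 lower) with each array centred on its median. The median difference over all clusters was -0.20 as deposited, and list medians below are read against it. Shares of a list that were higher or lower are set against the 13% and 32.0% of all clusters above. Among the clusters that passed, 296 were higher and 375 lower by at least 3, and 115 were higher and 33 lower by at least 5. Every KO neutrophil array lay above every KO microglia array for 8.36% of clusters and below every KO microglia array for 21.0%. Both cell types came as sorted bulk RNA, so fewer cells of a kind in a gate and less RNA per cell cannot be told apart for any of these genes.

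**Figure D1:**
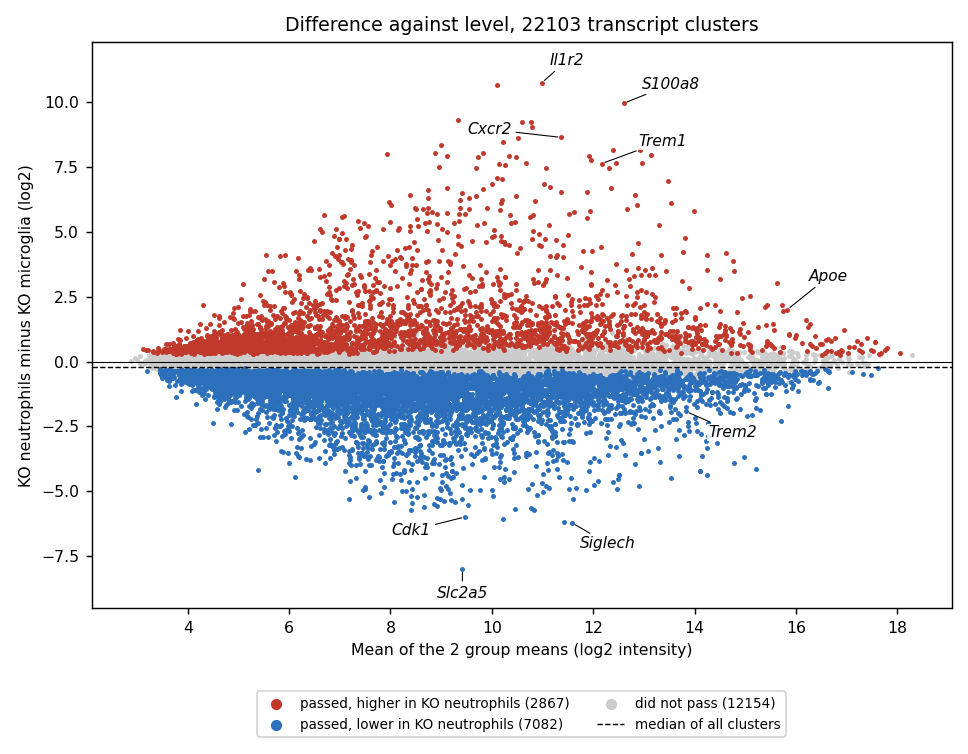
Each point is a transcript cluster, with the mean of the KO neutrophil and KO microglia group means (log2 intensity) on the horizontal axis and KO neutrophils minus KO microglia (log2) on the vertical axis. Red points passed and were higher in KO neutrophils (2867), blue points passed and were lower (7082), and the dashed line is the median of all clusters, -0.20; the largest positive differences exceed the largest negative ones.

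Among clusters with 1 gene symbol and a level at or above the median cluster, the largest increase was in Il1r2, a decoy receptor that binds interleukin-1 without signalling. Il1r2 measured 16.10, 16.69, 16.37, 16.16 and 16.42 in KO neutrophils, while the KO microglia arrays ran from 5.38 through a median of 5.43 to 6.23. The difference was 10.73 (SE 0.58, adjusted p = 4.94e-15), and the 5 values of KO neutrophils lay far above all 6 of KO microglia. S100a8, a subunit of the calcium-binding protein calprotectin, measured 17.12, 17.90, 17.51, 17.44 and 17.87 across the KO neutrophil arrays, against a lowest of 3.89, a median of 7.08 and a highest of 12.04 in KO microglia. It rose by 9.94 (SE 0.87, adjusted p = 1.32e-10). The KO microglia arrays of S100a8 were spread widely, with KO microglia 2 highest and KO microglia 5 lowest, but none reached the KO neutrophil arrays. S100a9, its partner subunit, was at 16.54, 17.27, 17.14, 16.74 and 17.28 in the 5 KO neutrophil arrays, against 6.34 to 12.88 with a median of 8.21 in the 6 KO microglia arrays, a difference of 8.16 (SE 0.69, adjusted p = 7.74e-11).

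The other 9 of the 12 largest increases included proteases, receptors, cytokines and secreted proteins. Mmp9, the gelatinase that cuts basement membrane collagen, measured 12.83, 14.59, 13.78, 14.10 and 14.60 in KO neutrophils, while the KO microglia arrays ran from 4.09 through a median of 4.59 to 5.49. It rose by 9.30 (SE 0.31, adjusted p = 7.84e-20) and its groups were far apart. Slfn4, a schlafen gene of mouse myeloid cells, rose by 9.24 (SE 0.32, adjusted p = 2.25e-19), and Il1f9, which encodes interleukin-36 gamma, rose by 9.21 (SE 0.34, adjusted p = 9.02e-19). Acod1, the enzyme that makes itaconate, differed by 9.03 (SE 0.37, adjusted p = 7.37e-18). Cxcr2, the receptor for the neutrophil-attracting CXC chemokines, measured 15.50, 16.06, 15.75, 15.79 and 15.36 across the KO neutrophil arrays, against a lowest of 6.65, a median of 6.82 and a highest of 7.65 in KO microglia. All 5 KO neutrophil arrays of Cxcr2 stood within 1 log2 unit of each other, and the difference was 8.63 (SE 0.28, adjusted p = 6.61e-20). Retnlg, a resistin-like secreted protein, differed by 8.47 (SE 0.63, adjusted p = 5.07e-12) and Lcn2, which binds bacterial siderophores, by 8.16 (SE 0.82, adjusted p = 2.27e-09). Rasgrp4, an activator of Ras, rose by 8.04, and Anxa1, a phospholipid-binding protein that limits neutrophil entry, rose by 8.02. KO microglia 2 was the highest array of its group for Retnlg (9.36, against 4.84 to 5.99 on the other 5), Lcn2 (12.45, against 5.56 to 9.38) and Anxa1 (7.59, against 4.95 to 5.86).

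Of these 12 genes 8, Il1r2 among them, had a KO microglia mean below the median level of all clusters, and of the 12 largest decreases 7 had such a mean in KO neutrophils. No detection call stands behind these lower means, so the sizes and their order are of intensities not shown to be above background.

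By the same rule, the largest decrease was in Slc2a5, the fructose transporter GLUT5, which in brain is a microglial gene. Slc2a5 measured 4.65, 5.58, 5.95, 5.05 and 5.92 in the 5 KO neutrophil arrays, against 12.32 to 14.78 with a median of 13.08 in the 6 KO microglia arrays. It fell to a mean of 5.43 ± 0.57 in KO neutrophils, against 13.41 ± 1.02 in KO microglia, a difference of -7.98 (SE 0.40, adjusted p = 5.78e-16). Siglech, a sialic acid-binding lectin of microglia and plasmacytoid dendritic cells, measured 8.40, 9.12, 9.07, 7.65 and 8.13 in KO neutrophils, while the KO microglia arrays ran from 13.98 through a median of 14.52 to 15.67, and fell by 6.21 (SE 0.36, adjusted p = 2.45e-14). Every KO microglia array of both genes lay above every KO neutrophil array. Adamts1, a secreted metalloprotease, differed by -6.08 (SE 0.42, adjusted p = 1.05e-12). The cell division list described below supplied 2 of the 12 largest decreases, Cdk1, the mitotic kinase, at -5.98 and Top2a, the DNA topoisomerase of dividing cells, at -5.61. The others included the histone gene H2ac8 at -5.52, Nav3 at -5.73, the adhesion receptor gene Adgrg1 at -5.66, the crystallin gene Crybb1 at -5.47, Tpbgl at -5.44 and Gpr155 at -5.42.

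The sorted identities were set beside marker lists. These lists were written with earlier results of these data known, so they are not an independent check. All 31 measured neutrophil markers passed and were higher in KO neutrophils, with a median difference of 5.90 against -0.20 over all clusters. Csf3r, the receptor for granulocyte colony-stimulating factor, measured 16.65, 17.35, 17.10, 17.24 and 17.37 across the KO neutrophil arrays, against a lowest of 13.63, a median of 14.03 and a highest of 14.79 in KO microglia. It rose by 3.04 (SE 0.21, adjusted p = 7.52e-13), with no overlap between the groups. Trem3, a TREM receptor gene of mice, rose by 4.50 (SE 0.33, adjusted p = 2.72e-12), and Mmp25, a membrane-bound protease of neutrophils, by 1.98 (SE 0.19, adjusted p = 6.1e-10). The mean over the neutrophil list was 12.64 to 13.99 per KO neutrophil array and 6.89 to 8.09 per KO microglia array.

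Of 25 homeostatic microglia markers, 22 were lower in KO neutrophils, 1 was higher and the median was -2.81. P2ry12, the purinergic receptor that guides microglial processes, measured 11.78, 13.12, 12.51, 12.61 and 13.41 in the 5 KO neutrophil arrays, against 15.21 to 16.41 with a median of 15.71 in the 6 KO microglia arrays. It differed by -3.07 (SE 0.25, adjusted p = 2.7e-11), and the groups did not overlap; the lowest KO neutrophil value was 11.78, on array 1. Tmem119, a membrane protein of microglia, measured 7.37, 7.86, 8.18, 7.32 and 7.44 in KO neutrophils, while the KO microglia arrays ran from 10.99 through a median of 11.81 to 13.75, and differed by -4.44 (SE 0.37, adjusted p = 4.36e-11). Sall1, a transcription factor of microglia, measured 6.05, 6.87, 6.97, 5.56 and 6.05 across the KO neutrophil arrays, against a lowest of 11.06, a median of 11.39 and a highest of 12.49 in KO microglia. It differed by -5.24 (SE 0.25, adjusted p = 2.77e-16), with every KO neutrophil array below every KO microglia array. Cx3cr1, the fractalkine receptor, differed by -4.78 (SE 0.36, adjusted p = 7.65e-12). Fcrls, an Fc receptor-like gene, measured 12.32, 12.64, 12.47, 8.88 and 10.16 in the 5 KO neutrophil arrays, against 15.27 to 16.15 with a median of 15.80 in the 6 KO microglia arrays. Its difference was -4.47 (SE 0.61, adjusted p = 6.12e-07), and the KO neutrophil arrays were uneven, with arrays 4 and 5 lowest. The member that was higher was Selplg, the P-selectin ligand that neutrophils also carry, at 0.44 (SE 0.16, adjusted p = 0.0215); it did not pass with quantile normalization or in a fit to only the arrays compared, and its adjusted p was 0.0528 to 0.0706 without KO neutrophil 2, KO neutrophil 5, KO microglia 4 or KO microglia 5, each left out in turn.

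**Figure D2:**
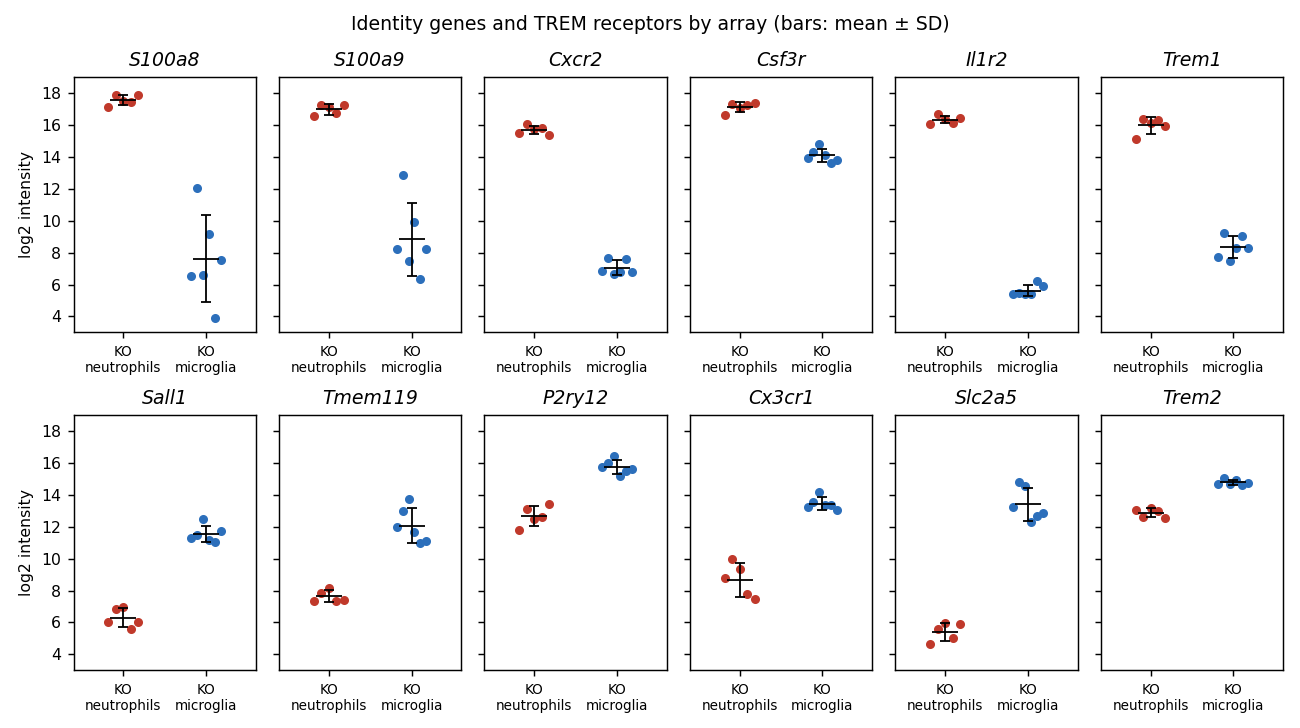
Each point is an array, with log2 intensity on the vertical axis; KO neutrophils (red, 5 arrays) stand left of KO microglia (blue, 6 arrays), and bars are the mean ± SD. The upper row holds genes that were higher in KO neutrophils, the lower row genes that were lower, and the groups do not overlap in any of the 12 panels.

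A list of genes shared by both cell types included Itgam and Ptprc, whose products were used in the sort. Of 24 measured, 11 were higher (45.8%, against 13%) and 1 lower (4.17%, against 32.0%), with a median of 0.26. Without KO neutrophil 5, 7 were higher. The lower count was 2 with quantile normalization, array weights or a variance trend, and without KO neutrophil 2, KO neutrophil 5 or KO microglia 6. Itgam, which encodes CD11b, measured 14.37, 15.13, 14.93, 14.93 and 15.36 in KO neutrophils, while the KO microglia arrays ran from 14.48 through a median of 14.89 to 15.16, and the difference did not pass at 0.06 (SE 0.17, adjusted p = 0.792). The arrays of both groups overlapped. Ptprc, which encodes CD45, measured 14.79, 15.37, 15.22, 15.25 and 16.43 across the KO neutrophil arrays, against a lowest of 14.57, a median of 14.64 and a highest of 15.11 in KO microglia. The gates were CD45 high for neutrophils and CD45 low for microglia, and Ptprc was higher in KO neutrophils by 0.64 (SE 0.21, adjusted p = 0.0125), which did not pass without KO neutrophil 5 (adjusted p = 0.0794). Spi1, the transcription factor PU.1 of myeloid cells, rose by 0.57 (SE 0.15, adjusted p = 0.00308). Tmsb4x, which binds actin monomers, was the member that fell, by 1.29 (SE 0.29, adjusted p = 0.000491). Ly6g, the gene of the neutrophil sort marker, was not analysed here.

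Trem1 measured 15.12, 16.39, 16.15, 16.31 and 15.93 in the 5 KO neutrophil arrays, against 7.50 to 9.21 with a median of 8.30 in the 6 KO microglia arrays. The difference was 7.62 (SE 0.37, adjusted p = 4.57e-16), a 197-fold higher intensity in KO neutrophils, and all 5 lay above all 6 KO microglia arrays. Both groups carry the knockout label, and the array gives 1 value for the gene. Its probes may lie outside the deleted part, so these levels check nothing about the genotype. In WT mice Trem1 averaged 17.20 ± 0.29 in WT neutrophils and 9.60 ± 1.02 in WT microglia, and the KO difference minus the WT difference was 0.02 (SE 0.55, adjusted p = 0.985), which did not pass. KO minus WT, Trem1 differed by -1.22 in neutrophils (adjusted p = 0.0361). In microglia its difference of -1.25 did not pass (adjusted p = 1.0).

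Trem1, Trem2, Trem3, Treml2 and Treml4 all lie on chromosome 17 in GRCm38.p6, and the first 2 went opposite ways. Trem2 measured 13.03, 12.60, 13.19, 12.98 and 12.56 in KO neutrophils, while the KO microglia arrays ran from 14.61 through a median of 14.71 to 15.06. It was lower in KO neutrophils, with a difference of -1.92 on the log2 scale (SE 0.31, adjusted p = 7.72e-06) and no overlap. Treml4 was higher by 3.39 (SE 0.32, adjusted p = 8.83e-10) and Treml2 by 1.45 (SE 0.27, adjusted p = 6.46e-05). The list of TREM receptors and genes of signalling through immunoreceptor tyrosine-based activation motifs had 26 measured members. Of these 18 were higher (69.2%, against 13%) and 4 lower (15.4%, against 32.0%), with a median of 0.84. Syk, the kinase recruited by that motif, measured 13.23, 13.75, 13.60, 14.10 and 14.93 across the KO neutrophil arrays, against a lowest of 10.35, a median of 10.91 and a highest of 11.72 in KO microglia. It rose by 2.96 (SE 0.24, adjusted p = 3.2e-11), and its groups did not overlap. Tyrobp, the shared adaptor, measured 16.48, 16.78, 16.62, 16.75 and 16.60 in the 5 KO neutrophil arrays, against 16.12 to 16.56 with a median of 16.40 in the 6 KO microglia arrays. Its difference was 0.27 (SE 0.11, adjusted p = 0.0451), with overlapping arrays, and it did not pass when any of KO neutrophils 2, 3, 4 or 5 or KO microglia 1, 3, 5 or 6 was left out (adjusted p 0.0528 to 0.115). Besides Trem2, the lower members, named after their values were seen, were the phospholipase gene Plcg2 at -1.59 (adjusted p = 1.03e-05), and the adaptor genes Card9 at -0.94 (adjusted p = 0.00515) and Lat2 at -0.86 (adjusted p = 0.00699). Pglyrp1, a granule protein reported to bind TREM1, was higher by 7.04 (adjusted p = 2.51e-14); it was also chosen after its values were seen.

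Sequence is printed below for 6 genes. S100a8 and P2ry12 are identity genes, Il1r2 and Slc2a5 had the largest difference in each direction, and Trem1 and Trem2 are the opposed receptors. The printed stretches lie just before 1 annotated start of each gene. Each is 250 bases from RefSeq on GRCm38.p6, written 5′ to 3′ on the gene's own strand, and capitals mark GGAAGT, the core of sites of PU.1, on either strand. The windows are chr3:90668821-90669070 on the plus strand for S100a8, chr1:40085843-40086092 on the plus strand for Il1r2, chr17:48232489-48232738 on the plus strand for Trem1, chr3:59262986-59263235 on the minus strand for P2ry12, chr4:150119094-150119343 on the plus strand for Slc2a5 and chr17:48346151-48346400 on the plus strand for Trem2.
S100a8: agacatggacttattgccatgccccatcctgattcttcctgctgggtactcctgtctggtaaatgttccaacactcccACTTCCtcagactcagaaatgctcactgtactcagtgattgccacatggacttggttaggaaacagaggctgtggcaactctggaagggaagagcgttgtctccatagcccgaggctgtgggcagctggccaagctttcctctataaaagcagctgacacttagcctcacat
Il1r2: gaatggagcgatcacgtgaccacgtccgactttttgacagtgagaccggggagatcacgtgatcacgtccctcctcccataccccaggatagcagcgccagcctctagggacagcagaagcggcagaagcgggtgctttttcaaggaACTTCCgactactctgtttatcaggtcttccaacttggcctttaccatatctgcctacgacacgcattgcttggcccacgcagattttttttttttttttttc
Trem1: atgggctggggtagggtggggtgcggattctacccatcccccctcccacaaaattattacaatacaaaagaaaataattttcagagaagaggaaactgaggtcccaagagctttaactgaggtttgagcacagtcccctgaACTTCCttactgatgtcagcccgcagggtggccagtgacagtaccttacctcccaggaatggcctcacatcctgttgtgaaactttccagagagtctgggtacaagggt
P2ry12: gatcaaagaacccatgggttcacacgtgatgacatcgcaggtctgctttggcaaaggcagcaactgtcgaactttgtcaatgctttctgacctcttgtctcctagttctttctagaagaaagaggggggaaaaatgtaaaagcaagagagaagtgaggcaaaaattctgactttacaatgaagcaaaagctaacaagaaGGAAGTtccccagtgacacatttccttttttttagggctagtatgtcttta
Slc2a5: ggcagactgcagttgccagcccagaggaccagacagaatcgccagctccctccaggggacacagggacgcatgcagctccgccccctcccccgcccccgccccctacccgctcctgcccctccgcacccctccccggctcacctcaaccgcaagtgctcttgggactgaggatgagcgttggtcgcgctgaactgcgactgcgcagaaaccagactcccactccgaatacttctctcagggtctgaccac
Trem2: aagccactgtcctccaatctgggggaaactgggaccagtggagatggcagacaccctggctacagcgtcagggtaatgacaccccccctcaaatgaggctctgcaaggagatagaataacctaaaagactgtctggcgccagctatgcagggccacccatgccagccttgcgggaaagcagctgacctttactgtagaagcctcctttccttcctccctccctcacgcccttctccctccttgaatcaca

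The match to GGAAGT lay 172 bases before the start used in S100a8, 103 in Il1r2, 109 in Trem1 and 51 in P2ry12, and the windows of Slc2a5 and Trem2 held none. The Il1r2 gene begins at 40084692, so its window lies inside the gene, before a later start. The Trem1 gene begins at 48232713, so its window runs past that base. Over all 32851 mouse promoters of this length 19.7% held the letters on either strand, and over the promoters of the genes on the array 20.5% did. They stood in 26.3% of the 266 promoters of genes higher in KO neutrophils by at least 3 and in 18.2% of the 340 promoters of genes lower by at least 3. TTGCNNAA, a form of the C/EBP site searched on both strands, stood in 14.3% and 9.41% of those promoters, and in 8.97% of the promoters of genes on the array. Matches of each were counted whether or not they overlapped, and a match is a description of the letters only.

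Granule genes varied by gene. Of 25 measured, 12 were higher (48.0%, against 13%) and 2 lower (8.0%, against 32.0%), with a median of 1.36. With quantile normalization or centring 1 was lower. The higher ones include late granule and secreted proteins such as Mmp9, Lcn2, Chil3 (a chitinase-like protein, 7.55 (SE 0.50, adjusted p = 4.74e-13)) and Mmp8, the neutrophil collagenase. Mmp8 measured 13.01, 14.79, 13.28, 12.94 and 14.27 in KO neutrophils, while the KO microglia arrays ran from 4.91 through a median of 5.63 to 7.37, a difference of 7.86 (SE 0.43, adjusted p = 6.47e-15) with no overlap. Mpo and Elane, genes of the primary granules made in bone marrow precursors, were not called higher: Mpo, which encodes myeloperoxidase, measured 7.53, 7.65, 7.78, 7.48 and 7.59 across the KO neutrophil arrays, against a lowest of 6.86, a median of 7.58 and a highest of 8.00 in KO microglia, and its difference was 0.11 (SE 0.17, adjusted p = 0.657). Elane, neutrophil elastase, differed by -0.62 (SE 0.24, adjusted p = 0.0333) and did not pass without KO neutrophil 1, 3 or 4 or KO microglia 2 or 3 (adjusted p 0.0525 to 0.117). Ltf, lactoferrin of the secondary granules, measured 6.21, 5.53, 6.21, 8.56 and 6.56 in the 5 KO neutrophil arrays, against 4.55 to 6.14 with a median of 5.27 in the 6 KO microglia arrays; KO neutrophil 4 was highest and the difference did not pass at 1.36 (SE 0.74, adjusted p = 0.141). The levels of Elane and Ltf were below the median of all clusters in both cell types. Ctsc, the protease that activates granule serine proteases, fell by 1.82 (SE 0.18, adjusted p = 1.12e-09).

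Receptors for chemoattractants were higher in KO neutrophils for 9 of 18 and lower for 4 (2 with quantile normalization or centring), with a median of 0.42. Cxcr4, which retains neutrophils in bone marrow, measured 15.71, 15.39, 15.61, 16.10 and 15.69 in KO neutrophils, while the KO microglia arrays ran from 7.71 through a median of 9.20 to 9.62. It rose by 6.70 (SE 0.25, adjusted p = 9.02e-19), far beyond the spread of both groups. Ccr1 rose by 4.41 (SE 0.33, adjusted p = 5.17e-12). Ccr7, a homing receptor of dendritic cells and lymphocytes, was at 9.74 ± 0.29 in KO neutrophils and 9.78 ± 0.26 in KO microglia, and did not pass at -0.05 (adjusted p = 0.845). The 4 lower receptors were Cx3cr1 and, named after their values were seen, Cmklr1 at -1.22, S1pr1 at -0.87 and C3ar1 at -0.53.

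Of 25 chemokines, 6 were higher (10 with quantile normalization) and 5 lower, and the median was -0.17 as deposited but 0.10 with arrays centred on their medians. Cxcl2, a ligand of CXCR2, measured 16.33, 17.15, 16.98, 17.22 and 17.04 across the KO neutrophil arrays, against a lowest of 7.04, a median of 10.01 and a highest of 12.66 in KO microglia. Its difference was 6.94 (SE 0.69, adjusted p = 1.89e-09), and the KO microglia arrays were spread over several units, with arrays 4 and 5 highest. Cxcl3 rose by 2.75 (SE 0.31, adjusted p = 1.75e-08). Cxcl1 differed by 0.97 (SE 0.39, adjusted p = 0.0462), a call lost without any of 8 arrays, KO neutrophils 3, 4 and 5 and KO microglia 1 to 5 (adjusted p 0.0509 to 0.225). Its level was below the median of all clusters in both cell types. Ccl12, a monocyte attractant, measured 8.83, 9.69, 9.17, 8.58 and 7.99 in the 5 KO neutrophil arrays, against 12.74 to 13.84 with a median of 13.13 in the 6 KO microglia arrays, and differed by -4.33 (SE 0.39, adjusted p = 2.69e-10) with no overlap. Ccl2 was at 12.19 ± 0.50 in KO neutrophils and 12.75 ± 0.40 in KO microglia, and its difference of -0.56 (adjusted p = 0.126) did not pass. The 5 lower chemokines were Ccl12, Cxcl10 and, named after their values were seen, Ccl4 at -1.93, Cxcl13 at -1.48 and Ccl5 at -1.12.

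Cytokines and their receptors were higher for 16 of 34 (47.1%, against 13%) and lower for 9 (26.5%, against 32.0%), with a median of 0.48. The 2 interleukin-1 agonists lay on opposite sides. Il1b measured 16.65, 17.31, 17.11, 17.05 and 17.47 in KO neutrophils, while the KO microglia arrays ran from 7.89 through a median of 9.12 to 10.21. It rose by 7.95 (SE 0.38, adjusted p = 3.01e-16), a 248-fold higher intensity. Il1a measured 9, 11.79, 10.39, 12 and 10.31 across the KO neutrophil arrays, against a lowest of 13.12, a median of 13.88 and a highest of 14.86 in KO microglia, and differed by -3.27 (SE 0.54, adjusted p = 1.07e-05); KO neutrophil 1 had its lowest value. Il1rn, the natural receptor antagonist, was higher by 4.11 (SE 0.34, adjusted p = 5.66e-11), alongside the decoy receptor gene Il1r2. Tnf measured 11.31, 12.45, 12.49, 14.50 and 12.12 in the 5 KO neutrophil arrays, against 11.29 to 12.56 with a median of 11.96 in the 6 KO microglia arrays; its arrays overlapped, KO neutrophil 4 stood highest, and the difference of 0.63 (SE 0.60, adjusted p = 0.413) did not pass. Tgfbr2, a receptor for TGF-beta, which microglia need for their identity, fell by 2.60 (SE 0.20, adjusted p = 9.23e-12).

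Pattern recognition receptors were higher for 16 of 32 and lower for 8 (5 with centring), with a median of 0.55. Clec4e, the lectin Mincle, measured 15.19, 15.74, 15.87, 16.14 and 16.20 in KO neutrophils, while the KO microglia arrays ran from 7.52 through a median of 7.96 to 8.93. It rose by 7.75 (SE 0.28, adjusted p = 5.17e-19), and the groups were wide apart. Tlr4, the receptor for bacterial lipopolysaccharide, rose by 1.17 (SE 0.26, adjusted p = 0.000566), and KO neutrophil 5 was highest for it at 11.37. Tlr3 and Tlr7, endosomal receptors for RNA, went the other way: Tlr3 measured 9.41, 10.21, 9.71, 8.02 and 8.24 across the KO neutrophil arrays, against a lowest of 13.19, a median of 13.40 and a highest of 14.04 in KO microglia, and fell by 4.43 (SE 0.39, adjusted p = 1.27e-10), while Tlr7 fell by 1.12 (SE 0.14, adjusted p = 1.12e-07). Tlr2 was at 12.58 ± 0.37 in KO neutrophils and 13.08 ± 0.33 in KO microglia and Cd14 at 14.75 ± 0.46 in KO neutrophils and 14.27 ± 0.27 in KO microglia, and neither passed, at -0.50 (adjusted p = 0.0622) and 0.48 (adjusted p = 0.119). Tlr2 passed without KO neutrophil 4, KO microglia 1 or KO microglia 2 (adjusted p 0.0314 to 0.0459), and Cd14 without KO neutrophil 1 (0.0408).

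Lower shares of several lists lay near the 32.0% of all clusters: 30% of complement genes, 34.4% of phagocytosis and lipid genes, 34.5% of lysosomal genes, 34.6% of matrix proteases and inhibitors, 33.3% of growth factor receptors and 28.6% of survival and death genes. Higher shares of the same lists, in that order, were 20%, 28.1%, 31.0%, 30.8%, 23.8% and 35.7%, against 13% of all clusters. The lysosomal genes all lay at or above the median level in KO neutrophils. Among clusters that bright in at least 1 group, 41.7% were lower and 15.2% higher.

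**Figure D3:**
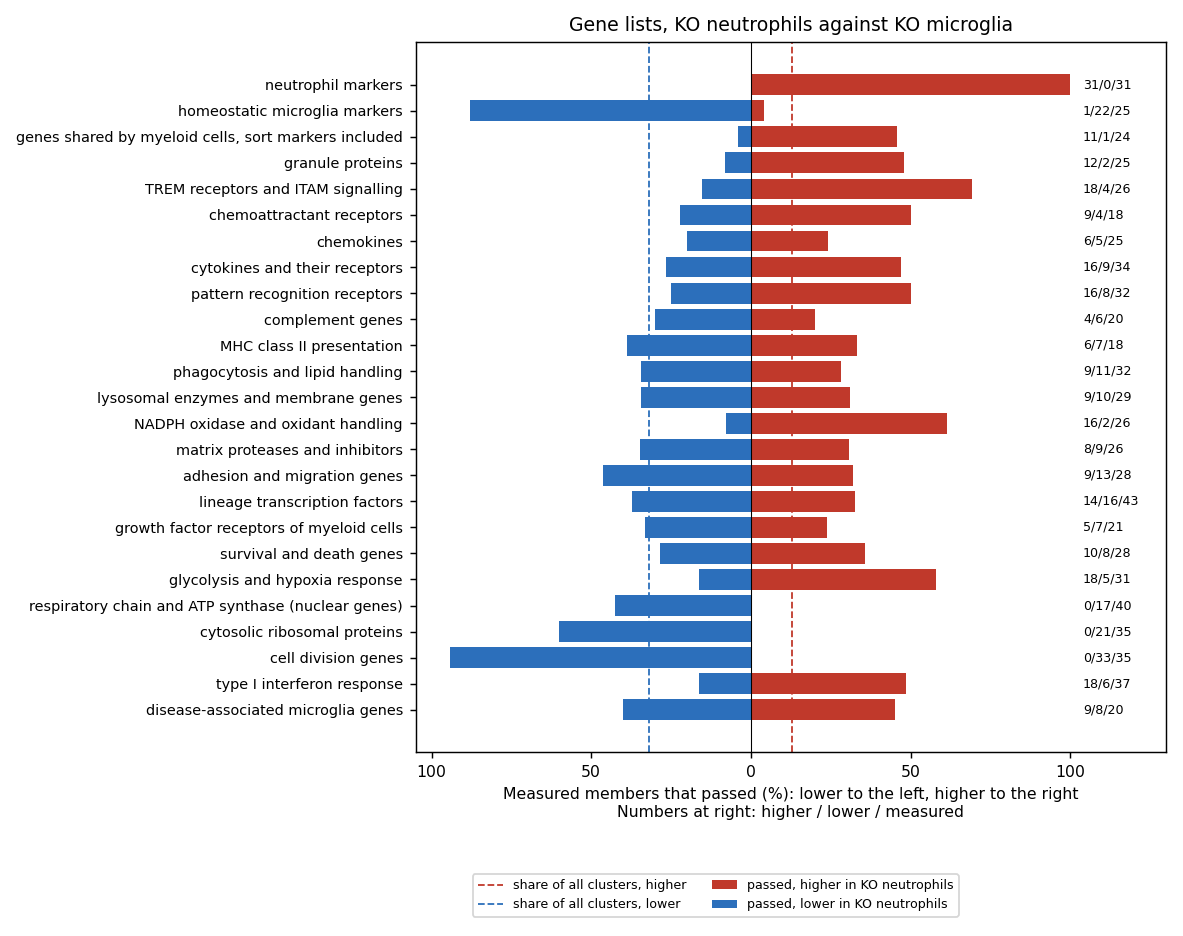
Bars give the percent of measured members of 25 gene lists that passed and were higher in KO neutrophils (red, to the right) or lower (blue, to the left), with counts as higher, lower and measured at the right. Dashed lines mark the share of all clusters, 13% higher and 32.0% lower; all 31 neutrophil markers lie to the right and 33 of 35 cell division genes to the left.

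Of 20 complement genes, 4 were higher (20%, against 13% of all clusters) and 6 lower (30%, against 32.0%), and the median was -0.20 as deposited, 0.10 with quantile normalization and 0.07 with centring. C1qb, a chain of the recognition molecule of the classical pathway, measured 14.06, 14.17, 14.38, 14.01 and 13.29 in the 5 KO neutrophil arrays, against 15.14 to 16.62 with a median of 16.13 in the 6 KO microglia arrays. It fell by 2.11 (SE 0.44, adjusted p = 0.000225), with no overlap, and KO microglia 6 was the lowest of its group. C1qa measured 15.34, 15.88, 15.75, 14.95 and 13.03 in KO neutrophils, while the KO microglia arrays ran from 15.65 through a median of 16.87 to 17.09, and the groups overlapped at KO microglia 6 (15.65); it fell by 1.73 (SE 0.43, adjusted p = 0.00163). C1qc fell by 2.33 (SE 0.42, adjusted p = 3.9e-05). Cfp, properdin, which stabilises the alternative pathway, measured 15.57, 15.36, 15.61, 15.74 and 15.73 across the KO neutrophil arrays, against a lowest of 8.46, a median of 9.36 and a highest of 11.90 in KO microglia, and rose by 5.86 (SE 0.45, adjusted p = 7.99e-12). The other higher members, named after their values were seen, were Cfb at 0.70, C1s1 at 0.57 and C6 at 0.57.

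Antigen presentation genes were higher for 6 of 18 (33.3%, against 13%) and lower for 7 (38.9%, against 32.0%), with a median of 0.07. The MHC class II chains were uneven among KO neutrophils. H2-Eb1 measured 9.02, 6.97, 11.20, 8.33 and 6.94 in the 5 KO neutrophil arrays, against 5.92 to 7.24 with a median of 6.10 in the 6 KO microglia arrays, and its groups overlapped. Its difference was 2.12 (SE 0.53, adjusted p = 0.00147), with KO neutrophil 3 far above arrays 2 and 5. H2-Aa was higher by 1.38 (SE 0.30, adjusted p = 0.000352) and H2-Ab1 by 1.43 (SE 0.44, adjusted p = 0.00883), and the H2-Ab1 call ended without KO neutrophil 3 (adjusted p = 0.0561). H2-DMb1, part of the peptide loader of class II, measured 12.05, 12.23, 12.44, 11.61 and 9.80 in KO neutrophils, while the KO microglia arrays ran from 13.75 through a median of 15.10 to 15.66. It fell by 3.31 (SE 0.37, adjusted p = 1.86e-08), and no arrays overlapped.

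Genes of phagocytosis and lipid handling were higher for 9 of 32 and lower for 11, and the median was -0.20 as deposited but 0.07 with centring. Apoe, a lipid carrier, measured 17.33, 16.05, 17.26, 17.18 and 16.30 across the KO neutrophil arrays, against a lowest of 14.13, a median of 14.84 and a highest of 15.51 in KO microglia. It rose by 1.99 (SE 0.36, adjusted p = 4.03e-05), with no overlap. Nr1h3, the oxysterol receptor LXR alpha, rose by 3.51 (SE 0.33, adjusted p = 6.62e-10). Ch25h, which makes 25-hydroxycholesterol, measured 7.62, 7.28, 7.62, 5.40 and 5.95 in the 5 KO neutrophil arrays, against 11.05 to 13.08 with a median of 12.07 in the 6 KO microglia arrays, and fell by 5.29 (SE 0.37, adjusted p = 1.12e-12). Mertk and Axl, receptors for dying cells, were lower: Mertk measured 13.18, 11.90, 13.05, 12.80 and 11.99 in KO neutrophils, while the KO microglia arrays ran from 13.28 through a median of 14.10 to 14.88, a difference of -1.51 (SE 0.33, adjusted p = 0.000381), and Axl differed by -1.87 (SE 0.39, adjusted p = 0.000265) with overlapping arrays. Their ligand Gas6 differed by -2.87 (SE 0.51, adjusted p = 3.15e-05). Lpl, lipoprotein lipase, differed by -2.71 (SE 0.18, adjusted p = 2.28e-13).

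Lysosomal genes were higher for 9 of 29 and lower for 10 (5 with centring), with a median of -0.28 as deposited, 0.01 with quantile normalization and -0.01 with centring. Ctsb, a lysosomal protease, measured 18.04, 17.71, 17.91, 17.91 and 17.61 across the KO neutrophil arrays, against a lowest of 17.37, a median of 17.47 and a highest of 17.74 in KO microglia. Its difference of 0.34 (SE 0.13, adjusted p = 0.0398) was small and ended without any of 8 arrays, KO neutrophils 1, 3 and 4 and KO microglia 1, 2, 3, 5 and 6 (adjusted p 0.0501 to 0.106). Ctss was at 15.73 ± 0.33 in KO neutrophils and 15.80 ± 0.26 in KO microglia, and did not pass at -0.07 (adjusted p = 0.713). Hexa differed by -0.56 (SE 0.21, adjusted p = 0.0297), a call lost without KO neutrophil 2 or 5 or KO microglia 2 or 4 (adjusted p 0.0522 to 0.154). Tfec, a transcription factor related to the lysosomal regulator TFEB, rose by 1.62 (SE 0.39, adjusted p = 0.0012). Naglu, a lysosomal glucosaminidase, measured 12.43, 12.16, 12.63, 12.21 and 8.33 in the 5 KO neutrophil arrays, against 11.77 to 14.39 with a median of 13.97 in the 6 KO microglia arrays. It fell by 1.98 (SE 0.59, adjusted p = 0.00679), the arrays overlapped, and KO neutrophil 5 was far below the other 4.

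Oxidant genes were higher for 16 of 26 (61.5%, against 13%) and lower for 2 (7.69%, against 32.0%), with a median of 0.66. Subunits of the NADPH oxidase, which makes superoxide, varied. Ncf4 was higher by 1.91 (SE 0.17, adjusted p = 1.85e-10) with no overlap, named after its value was seen, as was Rac2, a GTPase the oxidase needs, by 1.16 (SE 0.17, adjusted p = 1.79e-06). Cybb, Cyba and Ncf1 did not pass: Cybb was at 13.45 ± 0.43 in KO neutrophils and 13.61 ± 0.35 in KO microglia, with a difference of -0.17 (adjusted p = 0.792), and the differences of Cyba and Ncf1 were 0.24 (adjusted p = 0.0828) and 0.14 (adjusted p = 0.695). Cyba passed without KO microglia 2 or 4 (adjusted p 0.0402 to 0.0473). Slc7a11, the cystine importer that feeds glutathione synthesis, measured 15.24, 16.06, 15.87, 16.12 and 16.01 in KO neutrophils, while the KO microglia arrays ran from 6.39 through a median of 7.88 to 9.14. It rose by 7.90 (SE 0.54, adjusted p = 8.77e-13), and all KO neutrophil arrays lay far above KO microglia. Hvcn1, a proton channel, differed by -1.69 (SE 0.46, adjusted p = 0.00326), and Keap1, an inhibitor of NRF2, by -1.05 (adjusted p = 1.87e-05). Keap1 was named after its value was seen.

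Matrix proteases and inhibitors were higher for 8 of 26 and lower for 9, with a median of 0.06. That median was -0.02 without KO neutrophil 2, KO microglia 3 or KO microglia 6, -0.06 without KO neutrophil 5 and -0.04 with array weights. Mmp9 and Mmp8 headed the list and Adamts1 closed it. Mmp14, a membrane protease of macrophages, was at 10.81 ± 0.82 in KO neutrophils and 10.38 ± 0.27 in KO microglia and did not pass at 0.43 (adjusted p = 0.264), although it passed without KO neutrophil 5 (adjusted p = 0.0401). Adhesion genes were higher for 9 of 28 (32.1%, against 13%) and lower for 13 (46.4%, against 32.0%), with a median of -0.64. Itgal, a subunit of the integrin LFA-1 that arrests neutrophils on endothelium, measured 12.01, 13.26, 12.79, 12.87 and 11.94 across the KO neutrophil arrays, against a lowest of 7.08, a median of 7.49 and a highest of 7.93 in KO microglia. It rose by 5.08 (SE 0.22, adjusted p = 2.34e-17), and Jaml, which takes part in transmigration, by 6.82 (SE 0.28, adjusted p = 8.35e-18). Cd34, a sialomucin of progenitors and endothelium, fell by 5.14 (SE 0.30, adjusted p = 1.99e-14), and its groups did not overlap. Itgb2, the beta chain shared by LFA-1 and CD11b, differed by 0.55 (SE 0.21, adjusted p = 0.0354), a call lost without KO neutrophil 1, 3, 4 or 5 or KO microglia 4 or 5 (adjusted p 0.0542 to 0.093).

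Transcription factors of myeloid lineages were higher for 14 of 43 (32.6%, against 13%) and lower for 16 (37.2%, against 32.0%). Their median was -0.12 as deposited, 0.08 with quantile normalization and 0.15 with centring. Rara, a retinoic acid receptor of granulocyte development, measured 10.38, 11.68, 11.43, 11.41 and 11.79 in the 5 KO neutrophil arrays, against 5.81 to 6.08 with a median of 6.04 in the 6 KO microglia arrays. It rose by 5.33 (SE 0.23, adjusted p = 3.9e-17). Mef2c, a factor of microglia and neurons, measured 9.89, 11.39, 10.83, 8.64 and 9.30 in KO neutrophils, while the KO microglia arrays ran from 14.64 through a median of 14.88 to 15.50, and fell by 4.91 (SE 0.42, adjusted p = 7.12e-11). Neither gene overlapped between the groups. Among the C/EBP factors Cebpd, named after its value was seen, was higher by 1.5 (SE 0.24, adjusted p = 9.03e-06), and Cebpe, which drives late granulocyte maturation, rose by 1.08 (SE 0.19, adjusted p = 2.83e-05). Cebpb differed by 0.41 (SE 0.16, adjusted p = 0.033), a call lost without KO neutrophil 1, 2 or 5 or KO microglia 1, 2 or 4 (adjusted p 0.0576 to 0.0779). Cebpa did not pass at 0.34 (SE 0.15, adjusted p = 0.0592), and passed without KO neutrophil 3, KO neutrophil 5 or KO microglia 1 (adjusted p 0.0236 to 0.0406). The level of Cebpe and Cebpb was below the median of all clusters in both cell types.

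Growth factor receptors were higher for 5 of 21 (23.8%, against 13% of all clusters) and lower for 7 (33.3%, against 32.0%), and 8 were higher with quantile normalization or centring, with a median of -0.23 as deposited, 0.06 with quantile normalization and 0.04 with centring. Csf1r, the receptor microglia depend on, measured 14.21, 14.54, 14.19, 14.17 and 14.67 across the KO neutrophil arrays, against a lowest of 15.94, a median of 16.17 and a highest of 16.71 in KO microglia, and fell by 1.87 (SE 0.16, adjusted p = 1.56e-10). Csf2rb, the chain shared by the GM-CSF and interleukin-3 receptors, rose by 0.85 (SE 0.18, adjusted p = 0.000346), while Csf2ra did not pass at 0.50 (adjusted p = 0.0927). Kit, the stem cell factor receptor, measured 7.09, 9.68, 7.40, 8.82 and 11.31 in the 5 KO neutrophil arrays, against 5.22 to 5.67 with a median of 5.50 in the 6 KO microglia arrays. It rose by 3.39 (SE 0.75, adjusted p = 0.000454) without overlap, and KO neutrophils 1 and 3 were nearest to KO microglia. Igf1r at 2.46 and Met at 1.12, named after their values were seen, were the remaining higher members beside Csf3r.

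Survival and death genes were higher for 10 of 28 and lower for 8 (2 with centring), with a median of -0.13 as deposited, 0.13 with quantile normalization and 0.14 with centring. Mcl1, the survival protein neutrophils depend on, measured 11.20, 11.52, 11.23, 11.40 and 11.40 in KO neutrophils, while the KO microglia arrays ran from 9.72 through a median of 9.84 to 9.95. It rose by 1.52 (SE 0.13, adjusted p = 5e-11), and each group was tight. Birc3, an inhibitor of apoptosis, rose by 2.26 (SE 0.39, adjusted p = 2.39e-05). Bcl2 fell by 2.17 (SE 0.32, adjusted p = 2.31e-06). Bcl2a1b and Bcl2a1d, near-identical copies whose probes may read each other, differed by -0.12 (adjusted p = 0.462) and -0.47 (adjusted p = 0.00916). The call of Bcl2a1d ended without KO neutrophil 5 (adjusted p = 0.0585), which was the lowest of its group for both copies, at 16.43 for Bcl2a1b and 15.41 for Bcl2a1d.

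Glycolysis and hypoxia genes were higher for 18 of 31 (58.1%, against 13%) and lower for 5 (16.1%, against 32.0%), with a median of 0.79. Egln3, an oxygen-sensing prolyl hydroxylase, measured 10.55, 11.69, 11.45, 11.90 and 12.39 across the KO neutrophil arrays, against a lowest of 4.78, a median of 4.98 and a highest of 5.88 in KO microglia. It rose by 6.42 (SE 0.34, adjusted p = 3.41e-15), with no overlap. Pfkl, the liver form of phosphofructokinase, rose by 0.98 (SE 0.17, adjusted p = 1.9e-05). Hk2 fell by 1.71 (SE 0.41, adjusted p = 0.00104), Hk3 was at 10.28 ± 0.30 in KO neutrophils and 10.28 ± 0.45 in KO microglia, and Ldha did not pass at 0.36 (adjusted p = 0.0823) although all its KO neutrophil arrays lay above all KO microglia arrays. Beside Hk2 and Slc2a5 the lower members, named after their values were seen, were Pdk1 at -1.56, Slc16a1 at -1.47 and Ldhb at -1.41.

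Nuclear genes of the respiratory chain and ATP synthase all lay at or above the median level of all clusters in both groups. Clusters that bright in at least 1 group were lower for 41.7%, with a median of -0.39. Of the 40 genes 17 (42.5%) were lower and none higher, with a median of -0.42, near those values. That count was 9 with quantile normalization (when 1 was higher), 5 with centring (when 4 were higher), 9 without KO neutrophil 5, 11 without KO microglia 2 and 8 without KO microglia 2 and 4. Ndufv1, a subunit of complex I, measured 10.19, 10.19, 10.12, 10.16 and 10.25 in the 5 KO neutrophil arrays, against 10.27 to 12.08 with a median of 11.58 in the 6 KO microglia arrays. It fell by 1.28 (SE 0.33, adjusted p = 0.00217), and KO microglia 6 lay close to KO neutrophils. Ndufa5 differed by -0.73 (SE 0.18, adjusted p = 0.00167), while Ndufb5 at -0.57 (adjusted p = 0.137) and Sdhb at -0.44 (adjusted p = 0.062) did not pass. Sdhb passed without KO neutrophil 1 or KO microglia 3 (adjusted p 0.0262 to 0.0417). Uqcrc2 differed by -0.48 (adjusted p = 0.0297), a call lost without KO neutrophil 1, 2 or 5 or KO microglia 1, 2, 3 or 6 (adjusted p 0.052 to 0.0708).

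Cytosolic ribosomal protein genes also all lay at or above the median level in both groups. Of 35 genes 21 (60.0%, against 41.7% of clusters that bright in at least 1 group) were lower and none higher. Their median was -0.43, against -0.39. With quantile normalization 20 were lower and 1 higher, with centring 6 were lower and 4 higher, and 14 were lower without KO microglia 2 and 4. Rplp0, a stalk protein, measured 8.13, 7.65, 7.95, 8.56 and 7.24 in KO neutrophils, while the KO microglia arrays ran from 8.72 through a median of 9.18 to 10.68, and fell by 1.53 (SE 0.35, adjusted p = 0.000735). Rpl3 measured 16.13, 15.66, 15.88, 15.73 and 15.15 across the KO neutrophil arrays, against a lowest of 15.81, a median of 16.26 and a highest of 16.42 in KO microglia; the groups overlapped, and its difference of -0.50 (SE 0.17, adjusted p = 0.0188) did not pass without KO neutrophil 5 (adjusted p = 0.0908). Rps6 was at 16.73 ± 0.09 in KO neutrophils and 16.73 ± 0.15 in KO microglia, a difference of 0.00 (adjusted p = 0.995).

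Cell division genes were lower for 33 of 35 and higher for none, with a median of -3.56 as deposited, -3.25 with quantile normalization and -3.29 with centring. Cdk1 measured 6.74, 7.21, 6.55, 6.34 and 5.61 in the 5 KO neutrophil arrays, against 12.04 to 12.88 with a median of 12.48 in the 6 KO microglia arrays. It fell by 5.98 (SE 0.44, adjusted p = 3.76e-12). Mki67, a protein of dividing cells, measured 9.47, 9.73, 11.24, 9.70 and 10.22 in KO neutrophils, while the KO microglia arrays ran from 13.52 through a median of 14.87 to 15.28, and fell by 4.64 (SE 0.37, adjusted p = 2.14e-11). Both genes kept the groups apart on all 11 arrays, and KO microglia 2 was the lowest of its group for Mki67, at 13.52 against 14.73 to 15.28. Top2a measured 5.86, 5.86, 6.93, 5.69 and 4.95 across the KO neutrophil arrays, against a lowest of 11.07, a median of 11.56 and a highest of 11.75 in KO microglia. Ccna2, cyclin A2, fell by 3.52 (SE 0.41, adjusted p = 3.98e-08). The 2 members that did not pass were the G1 factor gene E2f1 (0.16 (adjusted p = 0.648)) and the replication gene Cdc45 (-0.57 (adjusted p = 0.151)), named after their values were seen.

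Interferon response genes were higher for 18 of 37 (48.6%, against 13%) and lower for 6 (16.2%, against 32.0%), with a median of 0.49. With quantile normalization or centring 3 were lower. Of the 4 defining members, Irf7 passed and Isg15, Ifit1 and Ifit3 did not: Isg15 was at 7.70 ± 0.71 in KO neutrophils and 7.81 ± 0.60 in KO microglia, with a difference of -0.11 (adjusted p = 0.817), and Ifit1 and Ifit3 differed by 0.07 (adjusted p = 0.856) and -0.09 (adjusted p = 0.763). Slfn4 measured 14.45, 15.93, 15.40, 14.39 and 15.92 in the 5 KO neutrophil arrays, against 5.41 to 6.99 with a median of 5.86 in the 6 KO microglia arrays, with its groups far apart. Irf7, a factor of interferon induction, measured 8.79, 10.31, 9.55, 7.35 and 8.52 in KO neutrophils, while the KO microglia arrays ran from 6.30 through a median of 7.63 to 8.00, with overlap, and rose by 1.43 (SE 0.43, adjusted p = 0.00739). Cxcl10, an interferon-induced chemokine, measured 6.71, 7.30, 7.18, 6.87 and 7.18 across the KO neutrophil arrays, against a lowest of 8.21, a median of 9.67 and a highest of 11.01 in KO microglia. It fell by 2.58 (SE 0.43, adjusted p = 1.41e-05), and KO microglia 4, 5 and 6 were higher than arrays 1, 2 and 3.

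Genes known from disease-associated microglia were higher for 9 of 20 and lower for 8, with a median of 0.26. Gpnmb, a membrane glycoprotein of lipid-loaded phagocytes, measured 16.15, 15.34, 16.36, 16.08 and 15.54 in the 5 KO neutrophil arrays, against 8.47 to 10.84 with a median of 10.04 in the 6 KO microglia arrays. It rose by 6.03 (SE 0.42, adjusted p = 1.15e-12). Cst7, cystatin F, measured 9.13, 9.89, 9.24, 7.48 and 7.80 in KO neutrophils, while the KO microglia arrays ran from 13.25 through a median of 13.58 to 13.83, and fell by 4.85 (SE 0.39, adjusted p = 2.94e-11). Lpl and Trem2 were lower as well, while Apoe was higher in KO neutrophils. None of these genes overlapped between the groups.

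Markers of recruited macrophages moved with the comparison. Of 20 measured monocyte and macrophage markers, 16 were higher in KO neutrophils and 1 was lower, with a median of 4.56, and the mean of the list was 11.66 to 12 per KO neutrophil array and 7.49 to 8.68 per KO microglia array. In KO macrophages, the third sorted cell type, it was 13.78 to 14.40, and in WT neutrophils 11.19 to 12.46. Some members also stand in other lists here, such as Chil3 among the granule proteins and Ifitm6 among the interferon genes. The mean of this list is therefore not a measure of macrophages alone. Thbs1, thrombospondin 1 of platelets and macrophages, measured 16.59, 15.27, 16.33, 16.52 and 15.52 across the KO neutrophil arrays, against a lowest of 8.25, a median of 9.48 and a highest of 11.24 in KO microglia. It rose by 6.42 (SE 0.33, adjusted p = 1.42e-15). Fn1, fibronectin, did not pass at 0.62 (SE 0.26, adjusted p = 0.0543), and passed without KO neutrophil 2, KO microglia 3 or KO microglia 5 (adjusted p 0.0243 to 0.0361). The lower member was Ms4a4c (-0.96 (adjusted p = 0.0292)), named after its value was seen, a call lost with quantile normalization, centring or array weights, in a fit to only the arrays compared, and without KO neutrophil 2 or 5 or KO microglia 2 or 5. No marker of the list can be read as absent, since the deposited values carry no call against background. The part of these markers in Apoe, Gpnmb, Thbs1 and the other genes that macrophages also express was not tested.

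**Figure D4:**
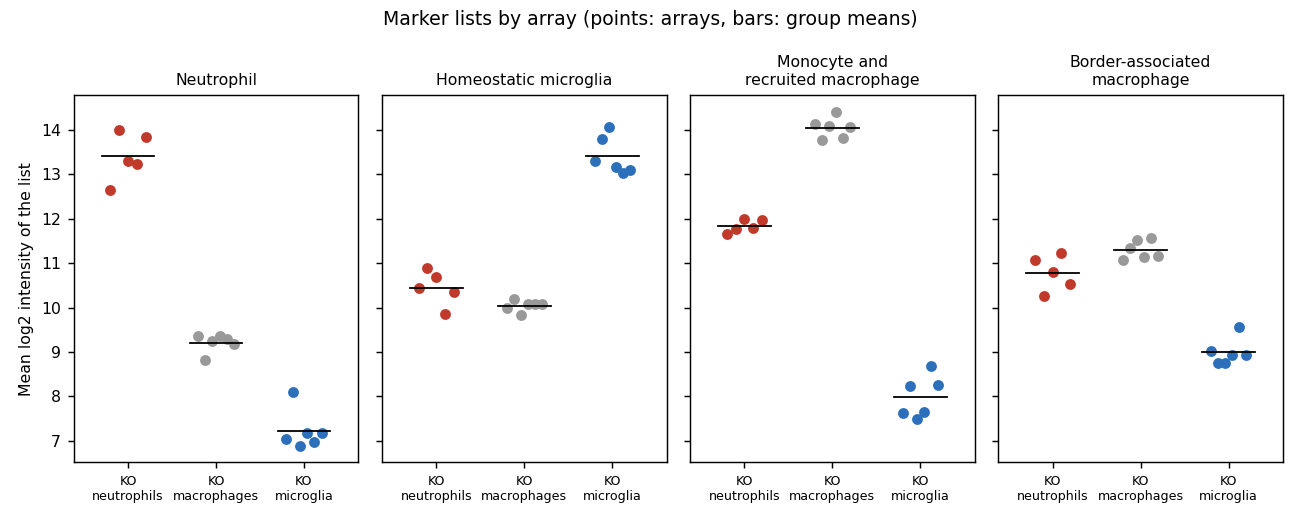
Each point is an array and each bar a group mean; the vertical axis is the mean log2 intensity over a marker list, for KO neutrophils (red, 5 arrays), KO macrophages (grey, 6) and KO microglia (blue, 6). KO neutrophils hold the highest neutrophil list (12.64 to 13.99), and their monocyte and recruited macrophage list (11.66 to 12) lies between that of KO macrophages (13.78 to 14.40) and KO microglia (7.49 to 8.68).

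Border-associated macrophage markers were higher for 6 of 15 and lower for 2, with a median of 0.32 and list means of 10.27 to 11.23 in KO neutrophils, 11.07 to 11.57 in KO macrophages and 8.75 to 9.56 in KO microglia. Pf4, platelet factor 4, which these macrophages and platelets express, measured 17.21, 14.99, 16.89, 17.93 and 16.54 in the 5 KO neutrophil arrays, against 11.58 to 13.51 with a median of 12.45 in the 6 KO microglia arrays. It rose by 4.17 (SE 0.56, adjusted p = 5.08e-07). Stab1, a scavenger receptor, was at 15.63 ± 0.18 in KO neutrophils and 15.75 ± 0.21 in KO microglia, and did not pass at -0.12 (adjusted p = 0.666). Cbr2, a carbonyl reductase, rose by 4.31 (SE 0.64, adjusted p = 2.44e-06). The lower members, named after their values were seen, were Dab2 at -1.52 and Siglec1 at -0.98 (1 lower with quantile normalization). In the other direction, the homeostatic microglia list had a mean of 9.85 to 10.88 in KO neutrophils and 9.84 to 10.19 in KO macrophages, against 13.03 to 14.07 in KO microglia.

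Lists of other immune cells were read for cells the gates could hold. Many members were dim, with no detection call behind them. In KO neutrophils and KO microglia, 14 and 14 of 16 T and NK cell markers lay below the median level of all clusters. So did 9 and 7 of 10 B cell and 8 and 6 of 12 dendritic cell markers. Of mast cell, basophil and eosinophil markers 11 and 12 of 13 did. Members of these lists outside the naming rule were named after their values were seen, and the counts moved with the settings. With quantile normalization 1 B cell marker was higher, and 3 dendritic and 0 mast cell, basophil and eosinophil markers were lower. With centring 2 B cell and 6 mast cell, basophil and eosinophil markers were higher, and 2 B cell, 3 dendritic and 0 mast cell, basophil and eosinophil markers were lower. In a fit to only the arrays compared 4 T and NK cell markers were lower, with array weights 3 and with a variance trend 2. Without the dimmest 25% of clusters 2 T and NK cell markers were higher and 0 lower, 2 B cell markers were lower, and 1 mast cell, basophil and eosinophil marker was higher and 1 lower. The mean of the T and NK cell list was 5.37 to 5.62 per KO neutrophil array and 5.18 to 5.37 per KO microglia array, with 4 of 16 members higher and 1 lower; its brightest member in both groups was Il7r, which rose by 3.56 (SE 0.47, adjusted p = 3.8e-07). Klrd1, Cd3d and Cd3g were higher by 1.06, 0.61 and 0.56, Cd3e differed by -0.93, and 2 members were lower without KO neutrophil 1, KO neutrophil 5 or KO microglia 6. The B cell list had 0 higher and 4 of 10 lower (2 without KO neutrophil 4), and Cd79b, a B cell receptor chain, fell by 3.01 (SE 0.26, adjusted p = 1.09e-10). Cd22, Cd79a and Fcer2a differed by -1.02, -0.47 and -0.40. The dendritic cell list had 3 of 12 higher and 5 lower (3 without KO neutrophil 1 or 4), with Siglech, Fscn1 at -5.23, Batf3 at -2.84, Itgae at -0.56 and Ly6d at -0.50 lower and Xcr1, Clec9a and Clec10a higher by 0.83, 0.70 and 0.48; 2 were higher without KO neutrophil 1, 2 or 4 or KO microglia 4. Its median was -0.18 as deposited and 0.09 with centring. Of 13 markers of mast cells, basophils and eosinophils, 2 were higher and 2 lower, and Siglecf, a lectin of mouse eosinophils, measured 11.63, 13.54, 11.64, 12.80 and 13.09 in KO neutrophils, while the KO microglia arrays ran from 7.22 through a median of 7.74 to 9.82. It rose by 4.54 (SE 0.43, adjusted p = 8.24e-10), and KO microglia 2 was the highest of its group. Cma1 was the other higher member at 0.54, and 3 were higher without KO neutrophil 1. The lower members were Ms4a2 at -0.58 and Mcpt8 at -0.43; 1 was lower without KO neutrophil 1 or 2 or KO microglia 1, 2, 5 or 6, and 0 without KO neutrophil 4.

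Astrocyte, oligodendrocyte and neuron lists had means between 5.48 and 6.55 on every array of both groups, and their counts moved with the settings too. In KO neutrophils and KO microglia, 9 and 9 of 14 astrocyte markers lay below the median level of all clusters. So did 8 and 9 of 12 oligodendrocyte, 12 and 11 of 14 neuronal, and 11 and 10 of 17 endothelial and mural markers. Of astrocyte markers 3 were higher with quantile normalization, 4 with centring and 2 with array weights, and 2 were lower with centring and 1 without the dimmest 25% of clusters. Of oligodendrocyte markers 2 were higher with centring, 0 were higher without KO microglia 2 and 4, and 2 were lower without the dimmest 25%. Of neuronal markers 3 were lower with centring, and 1 was higher without the dimmest 25%. Of 14 astrocyte markers Gja1 was higher at 1.10 (2 without KO neutrophil 2 or 4 or KO microglia 1, 2 or 5), and Slc1a3, Sox9, Aqp4 and Slc4a4 were lower at -2.21 to -0.31; the median was -0.02 as deposited and 0.31 with quantile normalization. Of 12 oligodendrocyte markers Sox10 was higher at 0.48 (0 without KO neutrophil 1 or 3 or KO microglia 2 or 6), and Cspg4, Mag, Ermn and Mog were lower at -2.14 to -0.69. Of 14 neuronal markers Syn1, Gria2 and Gad1 were higher at 0.58 to 1.49, and Rbfox3, Snap25, Gad2, Map2 and Nefm were lower at -1.19 to -0.47. Mbp, the myelin protein, was at 7.33 ± 0.28 in KO neutrophils and 7.28 ± 0.20 in KO microglia, and did not pass at 0.05 (adjusted p = 0.867). Endothelial and mural markers had a mean of 6.57 to 7.23 in KO neutrophils and 6.53 to 7.12 in KO microglia, with 2 of 17 higher (Ly6c1, and Acta2 at 2.40) and 2 lower (Cldn5 at -0.92 and Pdgfrb at -0.59). The lower count was 1 with quantile normalization or centring, without the dimmest 25% of clusters or without KO microglia 2, 6 with array weights and 3 without KO neutrophil 5 or KO microglia 3, 5 or 6. Dcn, a proteoglycan of fibroblasts, measured 10.75, 9.18, 11.45, 9.66 and 12.72 across the KO neutrophil arrays, against a lowest of 9.20, a median of 11.34 and a highest of 13.32 in KO microglia. Its arrays were scattered in both groups, and the difference of -0.43 (SE 0.88, adjusted p = 0.729) did not pass. Ly6c1, which monocytes and endothelium both express and whose near-identical copy Ly6c2 may share its probes, rose by 4.97 (SE 0.44, adjusted p = 1.85e-10). Erythroid and platelet markers were higher for 2 of 6, Pf4 and Ppbp (at 2.60), and lower for 0 (1 without KO neutrophil 4, with array weights or in a fit to only the arrays compared), with a list mean of 9.02 to 9.95 in KO neutrophils and 8.07 to 8.57 in KO microglia.

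The same contrast was made in WT mice. In WT mice 12007 clusters (54.3%) passed, 4873 (22.0%) higher and 7134 (32.3%) lower in neutrophils, on 4 WT neutrophil and 6 WT microglia arrays. Of the KO calls 79.0% passed in the same direction in WT, and of the WT calls 65.4% did so in KO, 7857 clusters in all. Across clusters, which are not independent, the KO and WT differences correlated at 0.893 with a slope of 0.711 through the origin. All arrays were deposited in 1 table. The difference between the 2 contrasts, the KO difference minus the WT difference, passed for 1280 clusters (5.79%), 897 (4.06%) positive and 383 (1.73%) negative, and 5092 had an unadjusted p under 0.05; its median over all clusters was -0.11. For 1116 of the 1280 the KO difference was closer to zero than the WT difference, and for 164 it was farther. These counts rested on single arrays: 724 clusters passed without KO neutrophil 1, 2118 without KO neutrophil 5 and 2611 without WT neutrophil 1. The negative count was 243 without KO neutrophil 4.

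**Figure D5:**
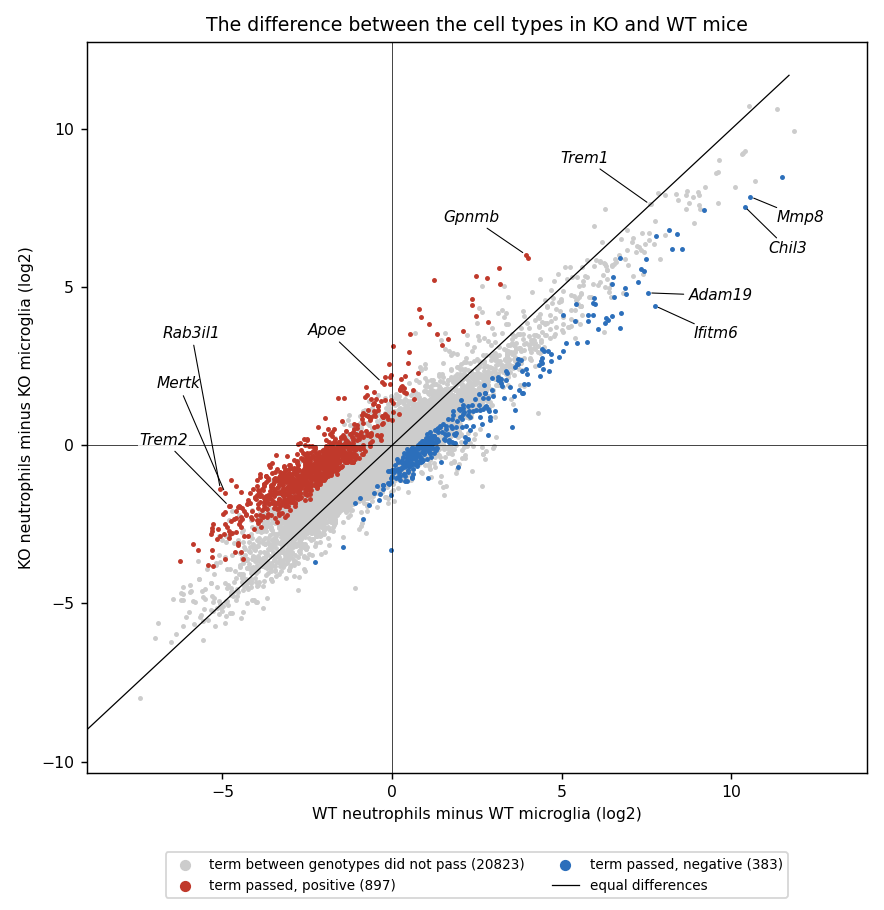
Each point is a transcript cluster, with WT neutrophils minus WT microglia on the horizontal axis and KO neutrophils minus KO microglia on the vertical axis (both log2); the line marks equal differences. Red points had a difference between genotypes that passed and was positive (897), blue points one that was negative (383), and most coloured points lie nearer to zero vertically than horizontally.

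Among the named positive terms, several were of genes lower in neutrophils, by less in KO mice than in WT mice. Mertk differed by -1.51 in KO mice and -4.92 in WT mice, a term of 3.41 (SE 0.48, adjusted p = 0.000157). Trem2 differed by -1.92 in KO mice and -4.81 in WT mice, a term of 2.90 (SE 0.45, adjusted p = 0.000493), and C1qb had a term of 2.83 (SE 0.64, adjusted p = 0.00798). That of C1qc, 2.33 (adjusted p = 0.0216), ended without WT neutrophil 2 or 4 (adjusted p 0.0506 to 0.0626). Rab3il1, an exchange factor for Rab GTPases, had the largest named term: it averaged 12.22 ± 0.46 in KO neutrophils and 13.61 ± 0.21 in KO microglia, and 8.57 ± 1.55 in WT neutrophils and 13.63 ± 0.09 in WT microglia, a term of 3.67 (SE 0.51, adjusted p = 0.000157). Lipo3, a lipase gene, had a term of 3.00 (adjusted p = 0.00135) and Zdhhc21, a palmitoyltransferase gene, of 2.97 (adjusted p = 0.000916). The call of Zdhhc21 between KO cell types ended without KO neutrophil 2, KO neutrophil 5 or KO microglia 1 (adjusted p 0.0576 to 0.125).

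Other named positive terms were of genes higher in KO neutrophils than in KO microglia. Apoe differed by 1.99 in KO mice and -0.30 in WT mice, a term of 2.29 (SE 0.52, adjusted p = 0.00876). Nr1h3 had a term of 2.96 (adjusted p = 0.000826), Anpep, an aminopeptidase of myeloid cells, of 3.20 (adjusted p = 0.00518), and Kcnn4, a calcium-activated potassium channel, of 3.10 (adjusted p = 0.00181). Kif3a, a kinesin motor gene, differed by 1.51 in KO mice and -1.59 in WT mice, a term of 3.10 (adjusted p = 0.00542). The term of Cbr2, 3.51 (adjusted p = 0.0239), ended without KO neutrophil 1, KO neutrophil 4 or WT neutrophil 3 (adjusted p 0.052 to 0.055). That of Gpnmb, 2.09 (adjusted p = 0.0393), ended without KO neutrophil 1, 3 or 4, KO microglia 2, 3 or 5, WT neutrophil 2 or 3 or WT microglia 1, 2 or 6 (0.0505 to 0.11). In KO mice the neutrophil arrays had higher means of the border-associated macrophage list, 10.27 to 11.23, than the WT neutrophil arrays, 9.39 to 10.00, and the part of those markers in these terms was not tested.

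All 8 negative terms taken by the naming rule were of genes higher in neutrophils, by less in KO mice than in WT mice. That rule took only bright clusters that also passed between KO neutrophils and KO microglia. Of the 1280 clusters whose term passed, 842 passed in both. For 662 of these the difference was smaller in KO than in WT mice. Ifitm6, an interferon-induced membrane gene of mouse myeloid cells, differed by 4.41 in KO mice and 7.75 in WT mice, a term of -3.33 (SE 0.72, adjusted p = 0.00563). Mmp8 differed by 7.86 in KO mice and 10.56 in WT mice, a term of -2.70 (SE 0.63, adjusted p = 0.01), and Adam19, a membrane protease, had a term of -2.73 (SE 0.41, adjusted p = 0.000391). Chil3 had a term of -2.84 (adjusted p = 0.02), Cped1 of -3.01 (adjusted p = 0.00154), Scrg1 of -2.52 (adjusted p = 0.000453) and Crispld2 of -2.48 (adjusted p = 0.00101). Retnlg, at -3.02 (adjusted p = 0.0491), lost the call without KO neutrophil 1, 3 or 4, KO microglia 1 or 4, WT neutrophil 2 or 3 or WT microglia 2 to 6 (adjusted p 0.0545 to 0.111). The neutrophil marker list averaged 12.64 to 13.99 per KO neutrophil array and 13.84 to 14.98 per WT neutrophil array. In limma no cluster passed between KO and WT microglia (0.0%), where 646 had an unadjusted p under 0.05, and 4390 (19.9%) passed between KO and WT neutrophils. Among clusters whose term passed, 1254 (98.0%) also passed between KO and WT neutrophils. Both comparisons share arrays with the terms, so these counts are not independent.

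Over all clusters 4.06% of terms were positive and 1.73% negative, and 724 to 2611 clusters passed with 1 array left out. By list, the phagocytosis and lipid genes had 12 positive and 0 negative terms among 32, and 10 to 16 positive ones with 1 array left out (1 was negative without WT neutrophil 1). The lysosomal genes had 16 and 0 among 29, with 10 positive without KO neutrophil 1. The ribosomal genes had 9 and 0 among 35, with 16 positive without WT neutrophil 1 and 14 with array weights. The respiratory chain genes had 6 and 0 among 40, with 13 positive without KO neutrophil 5 and 16 without WT neutrophil 1. Rpl3 differed by -0.50 in KO mice and -1.82 in WT mice, a term of 1.32 (adjusted p = 0.0024), and Ndufa5 by -0.73 in KO mice and -2.05 in WT mice, a term of 1.32 (adjusted p = 0.00369). Neutrophil markers had 0 positive and 6 negative terms among 31. The negative count was 2 without KO neutrophil 1, WT neutrophil 2 or WT neutrophil 3 and in a fit to only the arrays compared, 3 without KO neutrophil 3, WT microglia 2, WT microglia 3 or KO microglia 2 and 4, and 11 without KO neutrophil 5, WT neutrophil 1 or WT neutrophil 4 and with array weights. Cell division genes had 1 positive and 0 negative terms among 35, with 1 to 3 positive and 0 to 2 negative when 1 array was left out.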

How the data were processed

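The series measured sorted myeloid cells on 30 arrays, each from 0.6 to 0.8 ng of RNA of integrity above 7.5, per the labels. The deposited table holds linear intensities made with RMA, per the submitters' processing notes; its version, and which arrays were normalized together, are not given in the sources used here. RMA corrects background and usually equalises arrays, but the deposited arrays were not equal: their log2 medians were 6.48 to 6.61 in KO neutrophils and 6.78 to 6.86 in KO microglia, and the differences as deposited include that shift. The table had 22103 transcript clusters, from 5.62 to 438297, with none missing and no background calls, so the number of arrays limits the precision. Log2 was taken with no pseudocount and no filter. Gene symbols came from the platform annotation: 19508 clusters had 1 symbol, 2595 had none, and all 19508 were found by gene number in RefSeq GRCm38.p6. Promoters also came from RefSeq.

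A mean for each of the 6 groups of genotype and cell type was fitted in limma 3.58.1 (R 4.3.3), which left 24 residual degrees of freedom over the 30 arrays. The contrasts were KO neutrophils minus KO microglia, and the same minus its WT counterpart. Adjusted p-values are Benjamini-Hochberg over all clusters. Nothing says the arrays came from separate animals beyond the words biological replicate, so p-values measure the spread between arrays, pooled over the 6 groups. No 2 arrays held identical values, and their highest correlation was 0.9913. On simulated data of the same size the KO contrast recovered 68% of differences of 1 log2 unit and 96% of 2, with 3.52% false calls. The term between genotypes recovered 34% and 86%, with 2.04%. Only a small share of the simulated clusters differed, with normal noise, whereas 45.0% of clusters passed in the KO contrast of the data. These rates therefore need not hold for the data.

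The members, 36 gene lists (764 of 848 genes measured) and the tests were chosen with earlier results of these data known. Named genes were the 12 most positive and 12 most negative that passed and were bright (brighter mean at or above 6.69, the median of cluster means), the defining members and the largest passing difference each way of each list, the brightest member of lists of other cells, and 8 terms each way. These terms were taken only from bright clusters that passed for the term and also in the KO contrast. Clusters with several or no symbols and predicted models stayed unnamed. Other members are marked in the text as named after their values were seen. Alternatives were quantile normalization, median centring, array weights, a fit to only the arrays compared, a variance trend, no dimmest 25%, 1 cluster per gene, a difference of at least 1, the replicate number as a block, each array left out, and KO microglia 2 and 4 left out together. Figures used matplotlib 3.10.9 in Python 3.11.15.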

Additional observations from a re-analysis of the deposited data

Results flagged for a closer look

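Among the 160 named genes, 320 sets of arrays (KO neutrophils or KO microglia, for each gene) were searched for an array that stood far from the rest of its group, and 29 were found; chance alone gives about 1 in 20. They lay on KO microglia 6 for 7 genes, KO microglia 2 for 6, KO neutrophil 1 for 6, KO neutrophil 5 for 5, KO microglia 3 and 5 for 2 each and KO neutrophil 2 for 1. All values are log2 intensities of that array.

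KO neutrophil 1 was lowest for Treml2 (10.84), Cxcl2 (16.33), Slc7a11 (15.24), Rara (10.38) and Csf2rb (12.74) and highest for Rps6 (16.89). KO neutrophil 5 was highest for Tlr4 (11.37) and lowest for Naglu (8.33, against 12.16 to 12.63), Bcl2a1b (16.43), Bcl2a1d (15.41) and Lipo3 (10.99). KO neutrophil 2 was highest for Anxa1 (14.54).

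KO microglia 2 was highest for neutrophil genes, Retnlg (9.36), Mmp8 (7.37) and Anxa1 (7.59), as well as for Siglecf (9.82) and Tmsb4x (14.38), and lowest for Mki67 (13.52). KO microglia 6 was lowest for the complement genes C1qa (15.65), C1qb (15.14) and C1qc (14.15), and for Axl (8.74), Rpl3 (15.81), Ifit3 (7.97) and Isg15 (6.70). KO microglia 3 was highest for Mef2c (15.50) and Birc3 (10.54). KO microglia 5 was highest for Nr1h3 (6.67) and lowest for Rara (5.81).

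For 34 named genes the difference between neutrophils and microglia was itself different in KO and WT mice, by limma over all clusters. The KO difference minus the WT difference was positive for Rab3il1 at 3.67, Cbr2 at 3.51, Mertk at 3.41, Anpep at 3.20, Kif3a at 3.10, Kcnn4 at 3.10, Lipo3 at 3.00, Zdhhc21 at 2.97, Nr1h3 at 2.96, Trem2 at 2.90 and C1qb at 2.83. It was also positive for H2-DMb1 at 2.42, C1qc at 2.33, Apoe at 2.29, Mmp14 at 2.20, Gpnmb at 2.09, Stab1 at 1.79, Ndufb5 at 1.57, Ndufa5 at 1.32, Rpl3 at 1.32, Hexa at 1.16, Ctsc at 1.03, Ctss at 0.79 and Ctsb at 0.78. It was negative for Ifitm6 at -3.33, Retnlg at -3.02, Cped1 at -3.01, Chil3 at -2.84, Adam19 at -2.73, Mmp8 at -2.70, Scrg1 at -2.52, Crispld2 at -2.48, Jaml at -1.35 and Rara at -1.19. The terms of Ctss and Hexa did not pass without KO neutrophil 1 or WT neutrophil 4. The term of Jaml did not pass without any of 13 single arrays, nor that of Rara without any of 7 or that of Ndufb5 without any of 9.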

How the results depend on the processing

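The number of clusters that differed between KO neutrophils and KO microglia (9949) stayed within 1.5 times of itself in the alternatives run, except where a difference of at least 1 was required (4611 in all, 1298 higher, 3313 lower). Scaling moved the split: 4489 higher and 4654 lower with quantile normalization, 5280 higher and 4321 lower with each array centred on its median. Leaving out 1 array in turn gave 9206 to 9580 in all, 2609 to 2799 higher and 6515 to 6820 lower, and leaving out KO microglia 2 and 4 gave 8867. Of the 130 named genes that passed, 114 kept direction and call in each alternative other than the size threshold; 8 lost the call with quantile normalization, 8 with centring, and none reversed in either.

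The term between genotypes (1280 in all, 897 positive, 383 negative) was less stable. It passed for 724 to 2611 clusters, 557 to 1551 positive and 167 to 1060 negative, with 1 array left out, and for 821 (206 negative) in a fit to only the arrays compared. The negative count was 225 with centring and 239 with the size threshold. The labels do not say whether replicate numbers pair the arrays. Same-numbered KO neutrophil and KO microglia arrays deviated together with correlations of -0.00638 to 0.158, and WT arrays with -0.162 to 0.0704. For arrays with unlike numbers the correlations ran from -0.211 to 0.25 in KO and from -0.203 to 0.334 in WT. These ranges overlap, so the correlations cannot decide whether the arrays were paired. With the replicate number as a block the term passed for 619 clusters (475 positive, 144 negative) and the KO comparison for 9480; by list, it left 10 positive terms of phagocytosis and lipid genes, 9 of lysosomal, 3 of ribosomal and 1 of respiratory chain genes, and 3 negative ones of neutrophil markers. The cause of these moves was not tested.

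Differences that changed sign belonged to named genes that did not pass. With quantile normalization they were 0.42 for Hk3, 0.41 for Ccr7 and Ifit3, 0.31 for Isg15, 0.27 for Clu, 0.04 for Ctss and -0.15 for Rps6. With centring they were 0.27 for Hk3, 0.22 for Ccr7, 0.20 for Ctss, 0.17 for Ifit3, 0.16 for Isg15, 0.15 for Bcl2a1b and Stab1, 0.10 for Cybb and 0.08 for Clu. Array weights gave 0.02 for Ctss and 0.01 for Isg15, and the block gave 0.04 for Hk3, 0.01 for Ccr7 and -0.02 for Rps6. Without KO microglia 2 and 4 they were 0.07 for Ctss, 0.04 for Isg15 and 0.01 for Ifit3. With 1 array left out in turn they ran over -0.04 to 0.21 for Itgam, -0.02 to 0.20 for Mpo, -0.16 to 0.05 for Ctss, -0.27 to 0.02 for Cybb, -0.06 to 0.28 for Ncf1, -0.17 to 0.02 for Bcl2a1b and -0.11 to 0.10 for Hk3, and over -0.04 to 0.05 for Rps6, -0.02 to 0.18 for Ifit1, -0.29 to 0.05 for Ifit3, -0.33 to 0.08 for Isg15, -0.12 to 0.06 for Ccr7, -0.45 to 0.10 for Clu, -0.02 to 0.16 for Mbp and -0.92 to 0.00 for Dcn. The deposited intensities carry no signal over background, so 3120 of the calls, in which both groups lay below the median level, could not be checked for detection.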
